A study of Mus musculus with 3 samples.

Results

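The genes described here encode the proteins of the cytosolic ribosome, together with their paralogs. They were taken by symbol: every gene named Rpl or Rps followed by a number, and Rplp0, Rplp1, Rplp2 and Rpsa, without pseudogene names and without the Rps6k kinases. The rule found 88 genes among the 22457 in the tables, and 86 of them had an annotated coding sequence. They fell into 43 genes of the large subunit, 31 of the small subunit, 3 of the ribosomal stalk, 10 paralogs and Rps19bp1. Rps19bp1 has a matching symbol but encodes a protein that binds a ribosomal protein and is not part of the ribosome.

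RNA with poly(A) tails was measured in primary regulatory T cells from adult male mice at 4 months of age. The labels name 3 technical replicate libraries of 1 biological replicate, prepared from RNA sheared to a size range of 100 to 300. No genotype, treatment or sorting markers are given in the sources used here, and the libraries form 1 group. The only comparison is therefore between libraries, and its p-values measure the spread between libraries and not between animals.

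A ribosome joins a small subunit, which reads the mRNA, to a large subunit, which forms peptide bonds and holds the exit tunnel for the new chain. Each subunit carries many small basic proteins, nearly all present in a single copy, and their mRNAs are among the most abundant in dividing mammalian cells. Most of these mRNAs begin with a C followed by a run of pyrimidines, the terminal oligopyrimidine (TOP) motif, through which mTOR signalling controls their translation. Ribosomal protein genes have also left many processed pseudogenes, copies of the spliced mRNA inserted elsewhere in the genome, so the same coding sequence often occurs at several loci.

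Library totals were 3316275, 3079004 and 2782259 counts in libraries 1, 2 and 3. At these totals, a count of 0 allows up to 0.905, 0.974 and 1.08 CPM, the counts divided by the library's sum and multiplied by 1000000. All 5 T cell and all 4 Treg markers were detected in each library. Markers of other cell types had unequal levels in the 3 libraries. The 4 B cell markers, all detected, summed to 52.5, 119.5 and 143 CPM. The 4 myeloid markers, 2 of them detected, summed to 42.2, 89.0 and 29.8 CPM. The 3 erythroid markers, 2 of them detected, summed to 6.03, 9.42 and 23.0 CPM, and the 2 plasma cell markers, both detected, to 5.43, 26.6 and 70.5 CPM. None of these markers was at 0 in all libraries, and their part in the results for ribosomal protein genes was not tested. Of the CD8 T cell markers, Cd8a had 0, 0 and 1 counts and Cd8b1 71, 62 and 89.

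Ribosomal protein genes and paralogs held 17956, 17572 and 17801 counts in libraries 1, 2 and 3. This was 0.542%, 0.571% and 0.640% of the counts, with exact 95% intervals of 0.534% to 0.549%, 0.562% to 0.579% and 0.631% to 0.649%. The share averaged 0.584% ± 0.0505 (SD, n = 3 libraries) and was highest in library 3, the library with the smallest total. The intervals of the 3 libraries did not overlap. The summed counts themselves differed by a factor of 1.02 between the highest and the lowest library, while the library totals differed by a factor of 1.19. The 5 genes with the most counts held 39.0% of the sum. These intervals cover counting error alone, as reads copied from the same molecule are not independent.

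Of the 88 genes, 81 (92.0%) reached 1 CPM in each library, against 47.3% of all genes. The 7 that did not were Rpl19, Rpl23a and the paralogs Rpl3l, Rpl6l, Rpl10l, Rps4l and Rps27rt. Levels of different genes are compared per kb of coding sequence. The median over the 86 ribosomal protein genes and paralogs was 57.9 CPM per coding kb, and over the detected ones 66.2, against 31.7 over all 10542 detected genes with a coding length. The spread among ribosomal protein genes was wide. The large subunit genes ran between 3.63 and 594 CPM per coding kb with a median of 46.2, and the small subunit genes began at 3.87 with a median of 88.5. In 20 of the large subunit genes and 11 of the small subunit genes the mean count was under 50.

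**Figure D1:**
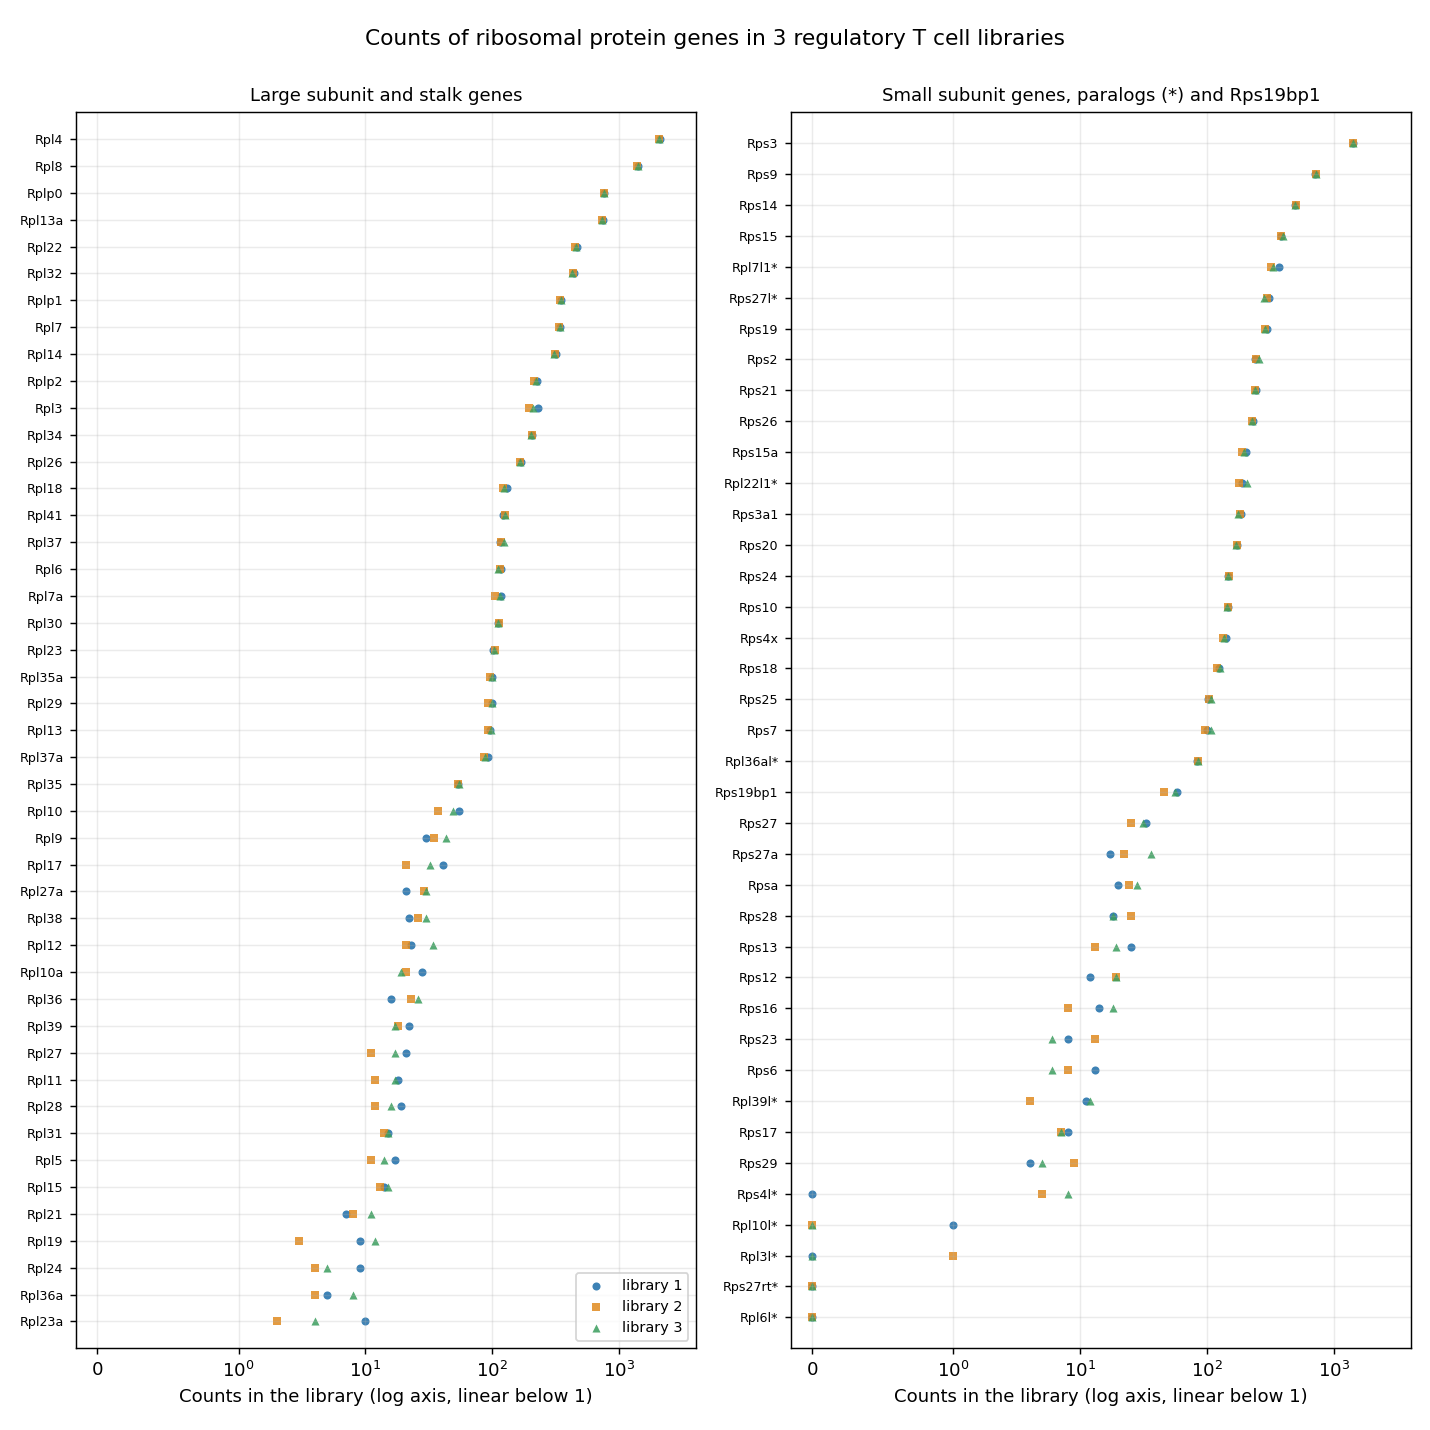
Counts of genes of the set in library 1 (circles), library 2 (squares) and library 3 (triangles), on a log axis that is linear below 1, with genes ordered by their mean count. The 3 symbols nearly coincide for genes with about 100 counts or more, and they spread apart for genes with fewer counts.

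The coding sequences of these genes were rarely unique in the annotated transcriptome. Every stretch of 31 bases of each coding sequence was looked up in the transcripts of all other genes, annotated pseudogenes included. The median gene of the set shared 94.9% of its 31-base stretches with another gene, against 0% for the median of all detected genes. In 32 of the 86 genes every stretch was shared, against 1.36% of all detected genes (143). Under 10% was shared in 3 genes, among them the muscle paralog Rpl3l and Rps19bp1 with 0% each. The tables hold rows for 225 of the 13525 annotated pseudogenes. How reads with several matches were counted is not given in the sources used here.

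Unique sequence was counted as the number of coding stretches of 51 bases that do not occur in transcripts of genes at other loci. The 27 genes with no such stretch had mean counts between 0 and 94.7, with a median of 15.7, and held 3.10% of the counts of the whole set. The 13 genes with 1 to 50 unique stretches had a median mean count of 88.3. The median was 124.7 in the 20 genes with 51 to 100, 311 in the 13 genes with more than 100 and up to 250, and 714 in the 13 genes with more than 250, which held 52.9% of the counts. Over all 86 genes, the mean count and the number of unique stretches had a Pearson r of 0.70 and a Spearman rho of 0.75. Over the 77 genes without paralogs and Rps19bp1, r was 0.98 and rho 0.91. Coding length gave lower values over the 86 genes (r = 0.38, rho = 0.19). So did unique 51-base stretches counted over the whole transcript instead of the coding sequence (r = 0.22, rho = 0.29). The relation was therefore seen with unique coding sequence and was weak with the whole transcript. These are descriptions across genes of the same libraries, and genes are not independent replicates.

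**Figure D2:**
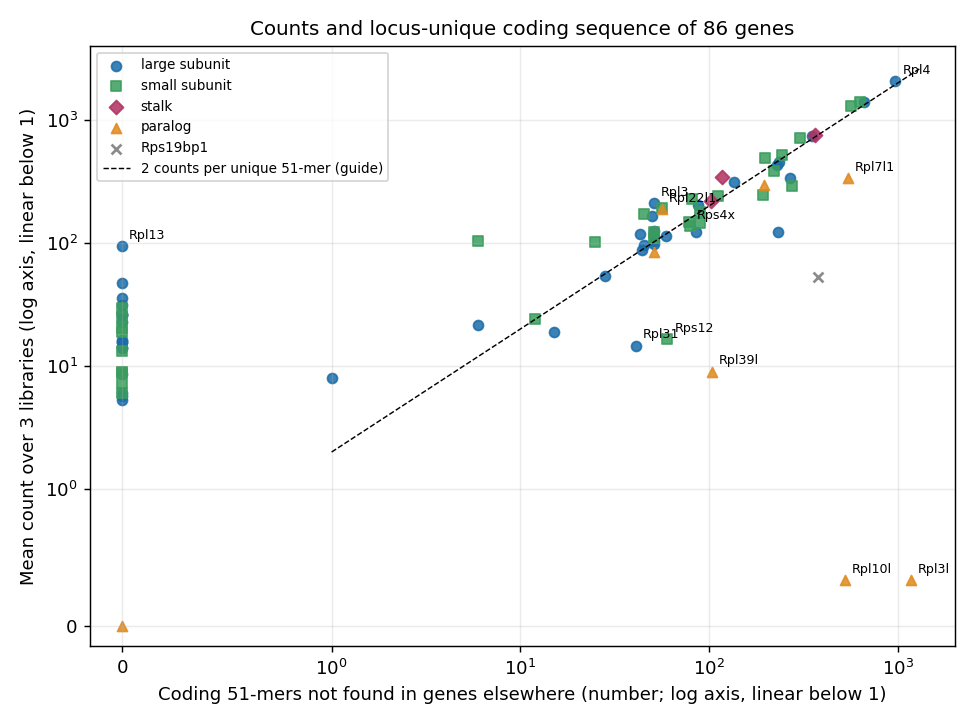
Mean count over 3 libraries against the number of coding 51-base stretches that were not found in genes at other loci, both on log axes that are linear below 1, for 86 genes coloured by class. The dashed line marks 2 counts per unique stretch, and most genes with 51 or more unique stretches lie near it, while Rpl3l, Rpl10l, Rpl39l, Rpl31, Rps12, Rpl7l1 and Rps19bp1 lie below it.

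Over the 46 genes with 51 or more unique stretches, the median was 2.05 counts per unique stretch, with quartiles of 1.53 and 2.27. Of them, 29 (63.0%) lay between 1.5 and 2.5. Among all 9882 tested genes with as many unique stretches, the median was 0.121, 3.38% lay between 1.5 and 2.5, and 0.364% lay above 2.5. The 6 ribosomal protein genes above 2.5 were Rpl3, Rplp1, Rpl22l1, Rps14, Rps15a and Rps26. The highest was Rpl3 at 4.14. The 11 below 1.5 included Rpl3l, Rpl7, Rpl7l1, Rpl10l, Rpl39l, Rpl41, Rps2, Rps12, Rps19 and Rps19bp1. Rps12, a small subunit protein, had 12, 19 and 19 counts on 60 unique stretches, or 0.278 per stretch, and Rpl31, a protein near the exit tunnel, 15, 14 and 15 counts on 41, or 0.358. These genes were low in spite of some unique sequence.

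In 9 genes the unique stretches all surrounded a single base. Each has exactly 31 unique stretches of 31 bases and 51 unique stretches of 51 bases, as a lone differing base gives. The 61 coding bases around that base are shown for 8 of them because every unique 31-base stretch of the gene lies within them. The capital is the base that differs from the copies at other loci.

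Rpl18: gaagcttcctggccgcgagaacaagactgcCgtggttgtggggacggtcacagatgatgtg
Rpl23: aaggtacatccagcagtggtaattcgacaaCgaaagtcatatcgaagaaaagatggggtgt
Rpl3: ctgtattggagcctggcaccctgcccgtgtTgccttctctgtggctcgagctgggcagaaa
Rpl30: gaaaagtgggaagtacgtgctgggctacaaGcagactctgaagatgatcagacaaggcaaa
Rpl35a: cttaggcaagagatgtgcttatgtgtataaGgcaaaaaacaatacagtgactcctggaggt
Rpl36al: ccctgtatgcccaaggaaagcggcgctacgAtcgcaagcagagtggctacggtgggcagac
Rpl7a: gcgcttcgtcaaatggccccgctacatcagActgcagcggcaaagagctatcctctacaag
Rps18: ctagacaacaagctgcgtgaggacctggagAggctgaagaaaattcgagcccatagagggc

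Positions are counted from 1 at the 5′ end of each window, with the base of the ribosomal protein gene first and that of the copy last. Rpl18 and Rpl23 each differ by C31T from 1 pseudogene on chromosome 6. Rpl30 differs by G31A from 6 pseudogenes, Rpl35a by G31A from 5 and Rpl7a by A31G from 7. Rpl36al differs by A31G from 1 pseudogene of Rpl36a. Rpl3 differs by T31A or T31C from 4 pseudogenes. Rps18 differs by A31C or A31T from 6 genes, 3 of them annotated as pseudogenes.

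These 9 genes had between 1.65 and 4.14 counts per unique 51-base stretch. Rpl18 had 130, 122 and 124 counts in libraries 1, 2 and 3, Rpl23 had 102, 105 and 104, Rpl30 had 110, 113 and 110, and Rpl35a had 99, 96 and 99. Rpl7a had 118, 105 and 114 counts, and Rps18 had 123, 119 and 126. In these 6 genes every count in every library was between 96 and 130. Rpl36al lay just below with 83, 85 and 84 counts, and Rpl3 above with 230, 195 and 208. None of the 9 passed the chi-square test between libraries, while 22.7% of all tested genes did. In that test 0 of the 9 had an unadjusted p under 0.05, against 34.3% of all tested genes. Both shares cover tested genes of every count level, while the mean counts of these 9 lay between 84 and 211. The contrast is therefore not matched for counts.

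Among the large subunit genes, 41 of 43 were detected, and the class held 45.4% of the counts of the set. Rpl8, a protein close to the site of peptide bond formation (chromosome 15, 76904078 to 76906314, GRCm38), had 1402, 1383 and 1394 counts, or 594 ± 51.6 CPM per coding kb. Rpl4, which lines the exit tunnel (chromosome 9, 64173375 to 64178666), had 2104, 2068 and 2067 counts, or 543 ± 43.9 CPM per coding kb. These were the most counts of any gene in the set. Rpl13a, which in human monocytes leaves the ribosome to silence mRNAs after interferon gamma, had 748, 737 and 733 counts, or 399 ± 31.5 CPM per coding kb. A gene overlapping Rpl13a shares much of its sequence, so its level is uncertain where strand was not used in counting. Rpl22, whose loss in mice blocks the development of alpha beta T cells, had 465, 449 and 458 counts, or 391 ± 33.3 CPM per coding kb. In each of these 4 genes the highest count was under 1.1 times the lowest.

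Other large subunit genes with as central a role had almost no counts. Rpl5 and Rpl11, which carry ribosomal RNA into the large subunit and bind Mdm2 when ribosome assembly fails, had 17, 11 and 14 counts and 18, 12 and 17 counts. Per coding kb this was 5.14 CPM for Rpl5 and 9.64 for Rpl11. Rpl19, which forms a bridge between the subunits, had 9, 3 and 12 counts, and Rpl23a, at the tunnel exit, 10, 2 and 4. Rpl24 had 9, 4 and 5 counts. All 5 of these genes shared every coding 31-base stretch with other genes, and all but Rpl19, with 1, had no unique 51-base stretch. Library 2 had the fewest counts in each of these 5 genes. Rpl5 and Rpl11 did not pass the chi-square test between libraries (adjusted p = 0.730 and 0.630), and the others had too few counts to be tested. The order was not shared by all genes without unique coding stretches, as Rps27a had 17, 22 and 36 counts. Rpl13, also with no unique coding stretch, had 95, 92 and 97 counts. It was the only gene of the 27 without unique coding stretches to average more than 50.

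All 31 small subunit genes were detected, and they held 41.7% of the counts of the set. Rps3, which sits at the mRNA entry site and also has roles in DNA repair and NF-kB signalling (chromosome 7, 99477896 to 99483738), had 1400, 1397 and 1397 counts, or 630.1 ± 55.2 CPM per coding kb. Rps9 had 708, 719 and 716 counts, or 403 ± 37.7 CPM per coding kb. Neighbours in the order Rps3, Rpl8 and Rpl4 differed by about the SD between libraries or less, and the order per coding kb was the same in each library. Rps14 and Rps19, whose human counterparts are lost or mutated in inherited or acquired anaemias, had 492, 498 and 494 counts and 294, 287 and 287 counts.

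Rps6, the substrate of the S6 kinases downstream of mTOR, had only 13, 8 and 6 counts, or 3.87 CPM per coding kb, the lowest level of the small subunit. It had no unique 51-base stretch. Rps27a, which is made as a fusion with ubiquitin, had 17, 22 and 36 counts and no unique stretch either. Rpsa, also known as the laminin receptor, had 20, 24 and 28 counts on 12 unique stretches, or 8.998 CPM per coding kb. Both Rps27a and Rpsa were lowest in library 1 and highest in library 3. Rps6 was highest in library 1 and lowest in library 3. Of these genes only Rps27a passed the chi-square test between libraries. Rpsa did not (adjusted p = 0.374), and Rps6 had too few counts to be tested.

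The 3 stalk genes, whose products form the flexible arm of the large subunit that recruits elongation factors, held 7.42% of the counts of the set. Rplp0, the base of the stalk, had 757, 755 and 754 counts, or 261 ± 22.6 CPM per coding kb. Rplp1 had 346, 342 and 345 counts and Rplp2 223, 214 and 222, or 331 and 209 CPM per coding kb. A ribosome carries more copies of Rplp1 and Rplp2 than of Rplp0. The unique stretches numbered 366 in Rplp0, 117 in Rplp1 and 102 in Rplp2.

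Of the 10 paralogs, 5 were detected, and the 10 held 5.17% of the counts of the set. Rpl22l1, the paralog of Rpl22 (chromosome 3, 28805436 to 28807424), had 187, 177 and 206 counts, against 465, 449 and 458 for Rpl22. Per coding kb, the ratio of Rpl22l1 to Rpl22 was 0.422, 0.414 and 0.472 in libraries 1, 2 and 3, and 0.436 over the summed counts (exact 95% interval 0.395 to 0.481). Rpl22l1 was thus below Rpl22 in every library. It has 56 unique 51-base stretches, against 234 in Rpl22, and per unique stretch it had 3.39 counts, against 1.95 for Rpl22. The order of the pair therefore turns with the measure.

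Rpl7l1, a nucleolar relative of Rpl7, had 368, 318 and 328 counts, against 339, 334 and 341 for Rpl7. The ratio per coding kb was 1.14 over the summed counts (1.04 to 1.24), and 1.23, 1.08 and 1.09 in the libraries, where the interval of library 1 alone left out 1. The summed counts were equal, at 1014 each. Rpl7l1 has 544 unique stretches, more than Rpl7. Per unique stretch Rpl7l1 had 0.621 counts, against 1.27 for Rpl7.

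Rps27l, a p53 target gene that encodes a paralog of Rps27 (chromosome 9, 66946086 to 66949516), had 309, 294 and 278 counts, against 33, 25 and 31 for Rps27. The ratio per coding kb was 7.49, 9.41 and 7.17 in libraries 1, 2 and 3, and 7.92 over the summed counts (6.36 to 9.96). Rps27rt, an intronless copy of Rps27 on the same chromosome as Rps27l, had no count in any library. The first 90 coding bases of the 3 genes are shown because they differ in how much sets them apart, with capitals where a base differs from Rps27.

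Rps27l: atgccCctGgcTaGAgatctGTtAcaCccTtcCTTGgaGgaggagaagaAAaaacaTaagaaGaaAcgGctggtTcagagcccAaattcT
Rps27rt: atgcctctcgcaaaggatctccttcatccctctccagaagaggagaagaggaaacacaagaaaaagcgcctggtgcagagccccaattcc
Rps27: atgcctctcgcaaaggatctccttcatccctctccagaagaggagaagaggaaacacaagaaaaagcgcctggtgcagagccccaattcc

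Rps27l differed from Rps27 at 24 of these 90 bases, and 76.2% of the 252 aligned coding bases of the pair were identical. Rps27rt was identical to Rps27 over all 252 coding bases. Rps27l had 195 unique 51-base stretches, and Rps27 and Rps27rt had none. A count of 0 for Rps27rt is therefore a count of what was assigned to that locus, and reads from Rps27 and Rps27rt coding sequence cannot be told apart. The ratio of Rps27l to Rps27 likewise compares assigned counts, and whether Rps27l transcripts exceed those of Rps27 was not tested.

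Rpl36al, a paralog of Rpl36a on chromosome 12, had 83, 85 and 84 counts, against 5, 4 and 8 for Rpl36a on chromosome X. The ratio was 14.8 over the summed counts (9.08 to 25.9) and lay between 10.5 and 21.2 in the libraries. A gene overlapping Rpl36al shares 94.8% of its coding 31-base stretches, so its level and this ratio are uncertain where strand was not used in counting. The first 90 coding bases of the pair are given for comparison, with capitals where Rpl36al differs.

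Rpl36al: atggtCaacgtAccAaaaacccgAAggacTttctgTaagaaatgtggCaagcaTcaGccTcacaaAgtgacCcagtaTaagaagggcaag
Rpl36a: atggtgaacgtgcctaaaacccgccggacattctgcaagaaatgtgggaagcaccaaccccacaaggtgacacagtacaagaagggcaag

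The pair differed at 14 of these 90 bases, and 87.7% of 318 coding bases were identical. Rpl36al had 51 unique stretches, those of the single base shown above, and Rpl36a had none. The ratio of this pair is thus also 1 of assigned counts. Rpl36a had more counts in library 3 than in libraries 1 and 2, whereas Rpl36al was nearly level.

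Rpl3l and Rpl10l had 1 count each over the 3 libraries although most of their coding sequence is unique. Rpl3l, the paralog of Rpl3 used in striated muscle (chromosome 17, 24727820 to 24736143), had 0, 1 and 0 counts on 1171 unique stretches, against 230, 195 and 208 counts on 51 for Rpl3. The ratio of the sums per coding kb was 0.00156 (3.95e-05 to 0.00875). Rpl10l, the testis paralog that stands in for Rpl10 during male meiosis (chromosome 12, 66283379 to 66284401), had 1, 0 and 0 counts on 522 unique stretches, against 55, 37 and 49 for Rpl10, which has none. The ratio was 0.0071 (1.78e-04 to 0.0402). Rpl39l, which is best known from testis and stem cells, had 11, 4 and 12 counts on 103 unique stretches, against 22, 18 and 17 on 15 for Rpl39. Its ratio was 0.474 (0.288 to 0.761), with the intervals of libraries 1 and 3 reaching past 1. Rps4l, annotated as a pseudogene, had 0, 5 and 8 counts, against 140, 134 and 136 for Rps4x, and Rpl6l, annotated as a pseudogene, had none.

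**Figure D3:**
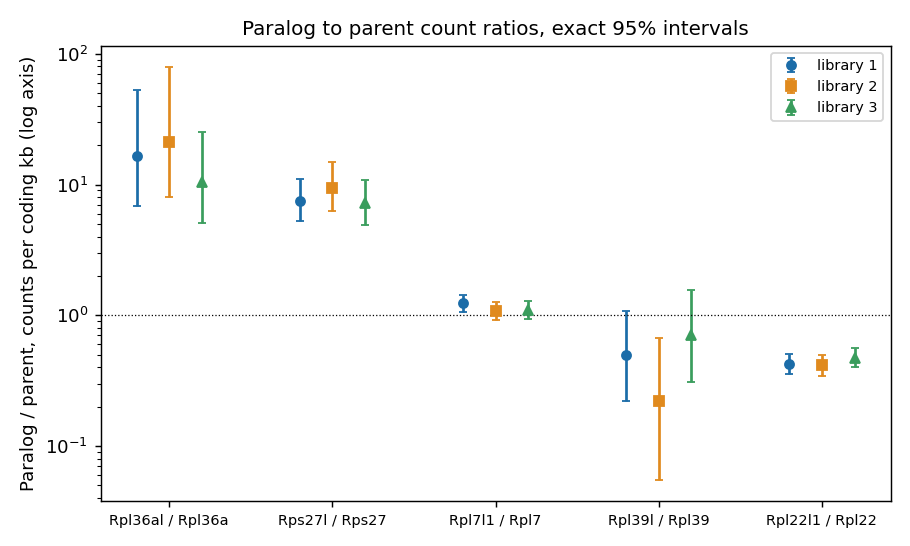
Ratio of paralog to parent counts per coding kb on a log axis in libraries 1 (circles), 2 (squares) and 3 (triangles), with exact 95% intervals that cover counting error. Rpl36al and Rps27l lie above 1 in every library, Rpl22l1 lies below 1 in every library, and Rpl7l1 and Rpl39l have intervals that reach 1 in 2 of the 3 libraries. The parents Rpl36a and Rps27 have no unique coding stretch, so their ratios compare assigned counts.

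Whether the libraries differed was tested for each gene with a chi-square test against counts in proportion to the library totals, adjusted by the Benjamini-Hochberg method over all 10043 genes with 30 or more summed counts. Of the 73 ribosomal protein genes and paralogs tested, 10 passed an adjusted p of 0.05. The share among all tested genes was 22.7%. The 10 included Rpl4, Rpl8, Rpl13a, Rpl22l1, Rplp0, Rps3, Rps9, Rps15 and Rps27a, and each of the 10 was highest in library 3 and lowest in library 1 in CPM. The edgeR and DESeq2 fits, where spread beyond Poisson noise is allowed for, set 1 library against the other 2. They called none of the set, but also few genes of any kind. Their outcome therefore does not set the ribosomal protein genes and paralogs apart. Without library 3 none passed the chi-square test, and 1 gene had an unadjusted p under 0.05, against 9.43% of all genes that passed and 21.7% with an unadjusted p under 0.05.

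For 8 of the 10 genes the highest raw count was under 1.1 times the lowest. Rps3 had 1400, 1397 and 1397 counts, which made 422, 454 and 502 CPM (adjusted p = 4.25e-04). Rpl4 had an adjusted p of 4.23e-05 on counts that differed by a factor of 1.02. Rps9 had a CPM ratio of 1.21 between its highest and lowest library, and Rps15, with 380, 380 and 395 counts, a ratio of 1.24. The 2 genes whose raw counts also differed were Rpl22l1, with a CPM ratio of 1.31 (adjusted p = 0.0463), and Rps27a, with 5.13, 7.15 and 12.9 CPM and a ratio of 2.52 (adjusted p = 0.0171). Of all 73 genes tested, 66 had their highest CPM in library 3, 6 in library 1 and 1 in library 2. Over all tested genes library 3 was the highest in 39.3%.

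The counts of these genes were thus nearly level between libraries of unequal depth. Among the 44 with a mean count of 100 or more, 38 (86.4%) had a highest count under 1.1 times the lowest, with a median ratio of 1.03. Among the 6150 other genes with as many counts, 16.3% did, with a median ratio of 1.24. The index of dispersion against equal counts, which averages 1 under Poisson noise with equal expected counts, had a median of 0.138 over the 73 genes, against 2.505 over all tested genes. It lay under 0.1 in 31 of the 73 genes (42.5%), against 3.77% of all tested genes. Against the library totals the median index was 1.42 for the 73 genes and 1.89 for all. Equal counts gave a lower index than the library totals in 62 of the 73 genes (84.9%), against 35.0% of all tested genes. How duplicate reads were treated is not given in the sources used here, and its part in the level counts was not tested.

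**Figure D4:**
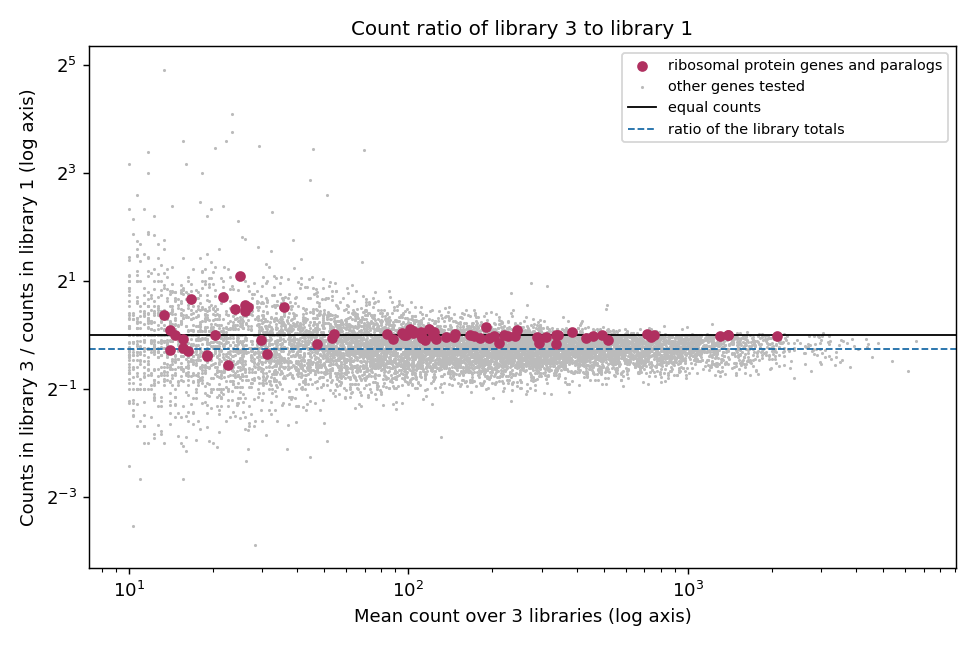
Counts in library 3 divided by counts in library 1 (log axis) against the mean count (log axis), for the ribosomal protein genes and paralogs (large points) and the other genes tested (small points). From a mean count of about 50 the ribosomal protein genes follow the line of equal counts, while the other genes centre near the ratio of the library totals, 0.839.

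Counts were least level in the genes with no unique coding stretch, and the index did not fall steadily with more unique sequence above that. The class with no unique stretch also had the lowest counts, so unique sequence and count level were not told apart. The median index against equal counts was 0.949 in the tested genes with no unique 51-base stretch. It was 0.143 in those with 1 to 50 unique stretches, 0.0718 with 51 to 100, 0.129 with more than 100 and up to 250 and 0.0565 with more than 250. In the 29 ribosomal protein genes with 1.5 to 2.5 counts per unique stretch it was 0.0683. The 334 genes of all kinds in the same range had a median index of 0.509, against 2.65 in the 8182 genes under 0.5 counts per unique stretch. Level counts were therefore not limited to ribosomal protein genes. The T cell gene Cd3e, for example, had 1248, 1228 and 1211 counts at 2.38 counts per unique stretch, with an index of 0.279. Cd3d and Cd3g were also level, with indices of 0.135 and 0.0903. The other T cell markers were not. Lck had an index of 3.43 at 1.98 counts per unique stretch, and Cd4 an index of 30.98 at 1.34.

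**Figure D5:**
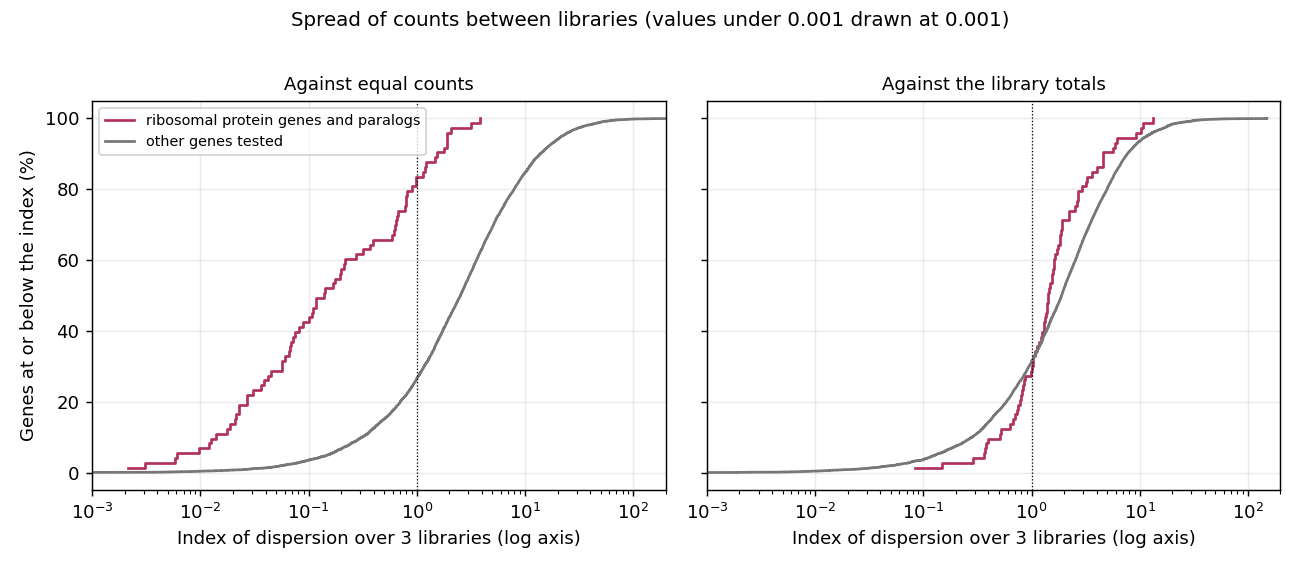
Share of genes at or below each value of the index of dispersion over the 3 libraries (log axis), computed against equal counts (left) and against the library totals (right), for the 73 tested ribosomal protein genes and paralogs and for the other tested genes. Against equal counts the ribosomal protein genes reach 50% near 0.138, and against the library totals the curves lie close together with medians of 1.42 and 1.89.

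The start of the transcript was examined for the TOP motif in the RefSeq sequences of build GRCm38.p6, of which 66 genes of the set had an entry, with 78 start sites. A C at the annotated start followed by 4 or more bases that are each C or T, on the gene's own strand, was found in 14 of the 66 genes (21.2%), against 3.01% of 27025 genes. Annotated starts are often off by a few bases, and no match says only that these letters are not at the annotated position. The windows of 4 matching genes with few or many counts are shown, from 12 bases before the start to 18 from it, with the run in capitals.

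Rpl15: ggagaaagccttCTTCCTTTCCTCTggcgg
Rplp2: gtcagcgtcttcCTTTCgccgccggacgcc
Rps6: cggaagtcgggcCTCTTTTTCgtgacgcct
Rps27: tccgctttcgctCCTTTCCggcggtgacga

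The longest run, 13 bases, was that of Rpl15 (chr14:18270969-18270998, minus strand), a large subunit protein that had 14, 13 and 15 counts and no unique coding stretch. Rplp2 (chr7:141447639-141447668, plus strand) had a run of 5 bases, Rps6 (chr4:86857350-86857379, minus strand) of 9 and Rps27 (chr3:90213631-90213660, minus strand) of 7. Rps6 and Rps27 were low in counts and Rplp2 was not, so genes with the motif were found at either end of the range.

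Other genes of the translation machinery were counted for comparison. Among cytosolic ribosomal proteins whose symbols do not match the rule, Rack1, a scaffold on the small subunit, had 1855, 1814 and 1859 counts, or 637 ± 59.1 CPM per coding kb. Rack1 shared 4.89% of its coding 31-base stretches with other genes. Fau had 29, 28 and 26 counts and shared every stretch. Among 19 other translation genes with TOP mRNAs that were measured, Rack1 and Fau included, 18 were detected, 9 of 18 tested passed the chi-square test between libraries (22.7% of all tested genes did), and the median was 149.6 CPM per coding kb. Rack1 and the elongation factor Eef2, at 554, stood highest, and Naca, at 9.79, was the lowest of those detected. The long coding sequence chosen for Naca lowers its value per kb.

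All 40 ribosome biogenesis genes were detected, and 11 of the 40 passed the chi-square test, against 22.7% of all tested genes. Their median was 64.4 CPM per coding kb. The highest were the nucleolar protein Ncl at 472 and Nop10, of the complex that makes pseudouridine, at 408, and the lowest Fbl, the rRNA methyltransferase, at 6.71 and Rrs1 at 3.00. All 20 regulators were detected, and 2 of the 20 passed the test, Myc and Gtf2ird1, against the same 22.7%. Their median was 35.2 CPM per coding kb. Myc, which raises transcription of ribosomal protein genes, had 320, 312 and 352 counts, or 79.4 CPM per coding kb. Mtor had 253, 227 and 189 counts, or 9.50 CPM per coding kb, and Larp1, which binds the TOP motif, 41, 47 and 53 counts, or 4.84. Rheb at 272 and Trp53 at 271 were the highest of the regulators, and Gtf2ird1 at 4.00 and Larp1 the lowest.

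The mitochondrial ribosome gives a contrast in sequence. Its 77 genes, 76 of them detected, shared a median of 3.18% of their 31-base stretches with other genes, against 94.9% in the cytosolic set. They held 20324, 19207 and 18790 counts, so that the cytosolic set had fewer counts than the mitochondrial set in every library. Their median was 138 CPM per coding kb, at 0.48 counts per unique 51-base stretch, and their median index against equal counts was 1.37. Of 76 tested, 5 passed the chi-square test, against 22.7% of all tested genes. The highest were Mrpl18 at 407 and Mrpl52 at 394 CPM per coding kb, and the lowest Mrps30 at 11.3 and Mrpl23 with 5, 0 and 2 counts.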

How the data were processed

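The authors aligned reads to mm10 with GENCODE M4, per the deposited notes, and deposited unscaled whole-number counts per gene. The aligner, counter, use of strand, and treatment of duplicate or multiply matching reads were not given in the sources used here. Symbols, coordinates and coding sequences came from GENCODE M21 of GRCm38, and promoter sequences from RefSeq (GRCm38.p6). Of 22457 identifiers, 22195 matched a symbol. Another 5 symbols that fit the rule were not analysed here.

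CPM were computed from library totals, and levels per kb from the longest annotated coding sequence. Stretches of 31 and 51 bases, and longer ones as an alternative, were looked up on both strands in the transcripts of all other genes. The chi-square test (2 degrees of freedom, 30 or more summed counts) used scipy 1.17.1. It was tried on simulated Poisson counts drawn in proportion to the library totals. The real counts depart from that setting, with a median index against the library totals of 1.89 over all tested genes. The simulation therefore does not show how the test behaves on these counts. edgeR 4.0.16 and DESeq2 1.42.0 (R 4.3.3) compared each library with the other 2. Paralog ratios have exact binomial intervals.

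The rule for named genes takes paralogs and their parents, the stalk genes and Rpsa, the 8 highest and 8 lowest per coding kb, genes at 0, the 5 with the largest CPM ratio among those passing the test, genes with under 10% shared stretches, 8 genes with known roles (Rpl5, Rpl11, Rpl13a, Rpl22, Rps3, Rps6, Rps14 and Rps19), and the 2 highest and 2 lowest of each list with Myc, Mtor and Larp1. Other genes named were chosen after their values were seen. A few genes of the set and lists are counted in the totals but not reported here by name. The members and lists were chosen with earlier results of these data known, and the measure of counts per unique stretch was added after the data were seen.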

Additional observations from a re-analysis of the deposited data

How the results depend on the processing

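The number of genes passing the test between libraries depended on the test and on the libraries used. It was 10 with library totals and 5 with TMM scaling (22.0% of all genes). The edgeR and DESeq2 fits, which set 1 library against the other 2, called none of the set and few genes of any kind. Leaving out a library gave 0 to 12. The count was 2 when library 1 was left out (13.1% of all genes), 12 when library 2 was (15.3%), and 0 when library 3 was (9.43%), where 1 gene had an unadjusted p under 0.05. TMM moved all genes by at most 0.03 on the log2 scale. Detection fell to 52 genes at 10 CPM. The share of counts was 0.645% with the cytosolic ribosomal proteins that the symbol rule leaves out. The median level was 14.1 CPM per kb of exon union and 300.5 per coding kb in genes with under 50% of stretches shared. The median shared was 88.6% at 51 bases, 70.6% at the longest stretch tried and 94.6% without overlapping genes. Without length, the ratio of Rpl7l1 to Rpl7 was 1.00 and that of Rps27l to Rps27 9.90. Counts per unique stretch had a median of 2.39 at 31 bases, 1.11 at the longest stretch and 0.241 over the whole transcript, and of 2.04 to 2.06 with a library left out. The median index against equal counts was 0.197 at 10 or more summed counts and 0.0717 to 0.107 with a library left out. The alternatives on counts per unique stretch, the index and overlapping genes were chosen after the data were seen. Over all results and these settings, 556 values kept their call or stayed within the spread or a set fold bound. Another 47 lost a call, 2 gained one and 23 moved. Most of the 556 belong to genes that were not called with library totals and stayed uncalled. Of the 10 genes called with library totals, 10 lost the call without library 3, 8 without library 1 and 5 with TMM scaling. Per unique stretch, which is another measure, the order of Rpl22l1 and Rpl22 and of Rpl7l1 and Rpl7 turned. The cause of the changes was not tested.

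No paired analysis was possible because the libraries form 1 group. A search of the genome outside each gene was not run. Most genes with no unique coding stretch had few counts, with a median mean count of 15.7, so their differences between libraries are measured less precisely.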
